A study of Drosophila melanogaster with 6 samples.

Results

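A set of 10 classical eye color genes of Drosophila melanogaster was followed in male larvae mutant for roX1 as well as roX2: white (w), vermilion (v), garnet (g), carmine (cm), ruby (rb), carnation (car), deep orange (dor), orange (or), pink (p) and light (lt). They were chosen by name and matched to probe sets by current symbol or synonym. Of the 10 genes, 7 are X-linked and 3 (or, p and lt) are autosomal. A probe set was named for 8 of them, 1 each, among 11953 genes with a named probe set in all. Of these 8, 7 passed the signal filter and were tested, while dor lay below it. No probe set carries the name w or v in the probe table used, so both were not analysed here.

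Each array held RNA of a preparation from 50 whole male larvae in the third larval instar, hybridised to an Affymetrix Drosophila Genome 2.0 array. The mutant group (3 arrays) had the genotype y+ w roX1- roX2-/Y, with SMC17A as the roX1 allele, and the control group (3 arrays) was y+ w roX1+ roX2-/Y. Both groups thus share the roX2 mutation and a w mutation, and the submitters' "wild-type" control is itself roX2-. The preparations are called independent by the submitters. Neither roX gene has a named probe set here, so the labels could not be checked at the mutated genes. The question addressed is how genes on X and on autosomes respond when males without roX2 also lose roX1, 1 of the 2 noncoding RNAs of the male dosage compensation complex.

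Eye pigments of flies are made and stored in granules related to lysosomes. Some genes first found through eye color act in sorting cargo to such organelles in many tissues, while others encode pigment enzymes or transporters. The AP-3 adaptor packs cargo into vesicles bound for these organelles, and its 4 subunits are delta (g), beta (rb), mu (cm) and sigma (or). The HOPS tether, to which car (Vps33A), dor (Vps18) and lt (Vps41) belong, holds vesicles to the target membrane before they fuse. The product of p is the HPS5 subunit of BLOC-2, a further complex of granule biogenesis. In whole larvae the RNA comes from all tissues, of which the eye disc is a small one, and fewer cells that express a gene cannot be told apart from less RNA per cell.

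All 4 AP-3 subunit genes fell in the mutant, 3 on X and 1 on an autosome, by 34.6% to 41.7%. The 3 tested genes outside AP-3 (car, lt and p) did not pass, nor did dor in a fit without the signal filter. Among all tested genes 32.4% fell, with 48.1% on X and 29.8% on the autosomes, so a fall was common in this comparison (limma, Benjamini-Hochberg adjusted p under 0.05). Rises made up 41.7% of all calls, and 58.5% when the deposited values were not rescaled. Signals below are scaled so that the autosomal median of each array is 100, and differences are mutant minus control on the log2 scale.

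The signal of g, the delta subunit, was 31.2, 26.1 and 25.7 on mutant arrays against 49.7, 41.1 and 51.6 on control arrays. Every mutant array lay below every control array, as in 53.1% of X-linked genes. The group means were 27.7 ± 3.1 and 47.5 ± 5.56 (SD, n = 3 each), a log2 difference of -0.78 (95% interval -1.07 to -0.48, limma adjusted p = 0.00154). The mutant mean lay just under that of the median probe set (28.9), so the size of the fall is uncertain.

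The signal of rb, the beta subunit, was 58.3, 47.6 and 55.5 in mutants against 90.2, 72.3 and 93.5 in controls. The groups did not overlap, as in 53.1% of X-linked genes with all mutant arrays lower, and control array 2 was the lowest control for both rb and g. The log2 difference was -0.66 (95% interval -0.95 to -0.37, limma adjusted p = 0.00301). For cm, the mu subunit that recognises sorting signals, the mutant signals were 53.4, 51.9 and 65.3 and the control signals 88.5, 88.6 and 98.3. Again all mutant arrays were lower. This fall was -0.70 (95% interval -0.95 to -0.45, limma adjusted p = 0.00124).

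The small sigma subunit gene or, on arm 2R, gave 160, 139 and 147 in mutants against 237, 228 and 217 in controls. The highest mutant array was still well below the lowest control array, and 34.3% of autosomal genes had all mutant arrays lower. Its log2 difference was -0.61 (SE 0.0865, 95% interval -0.81 to -0.41, limma adjusted p = 0.000786). With an offset of 50 added before the logarithm the falls were -0.33 for g, -0.38 for rb, -0.41 for cm and -0.48 for or, and all 4 still passed.

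**Figure D1:**
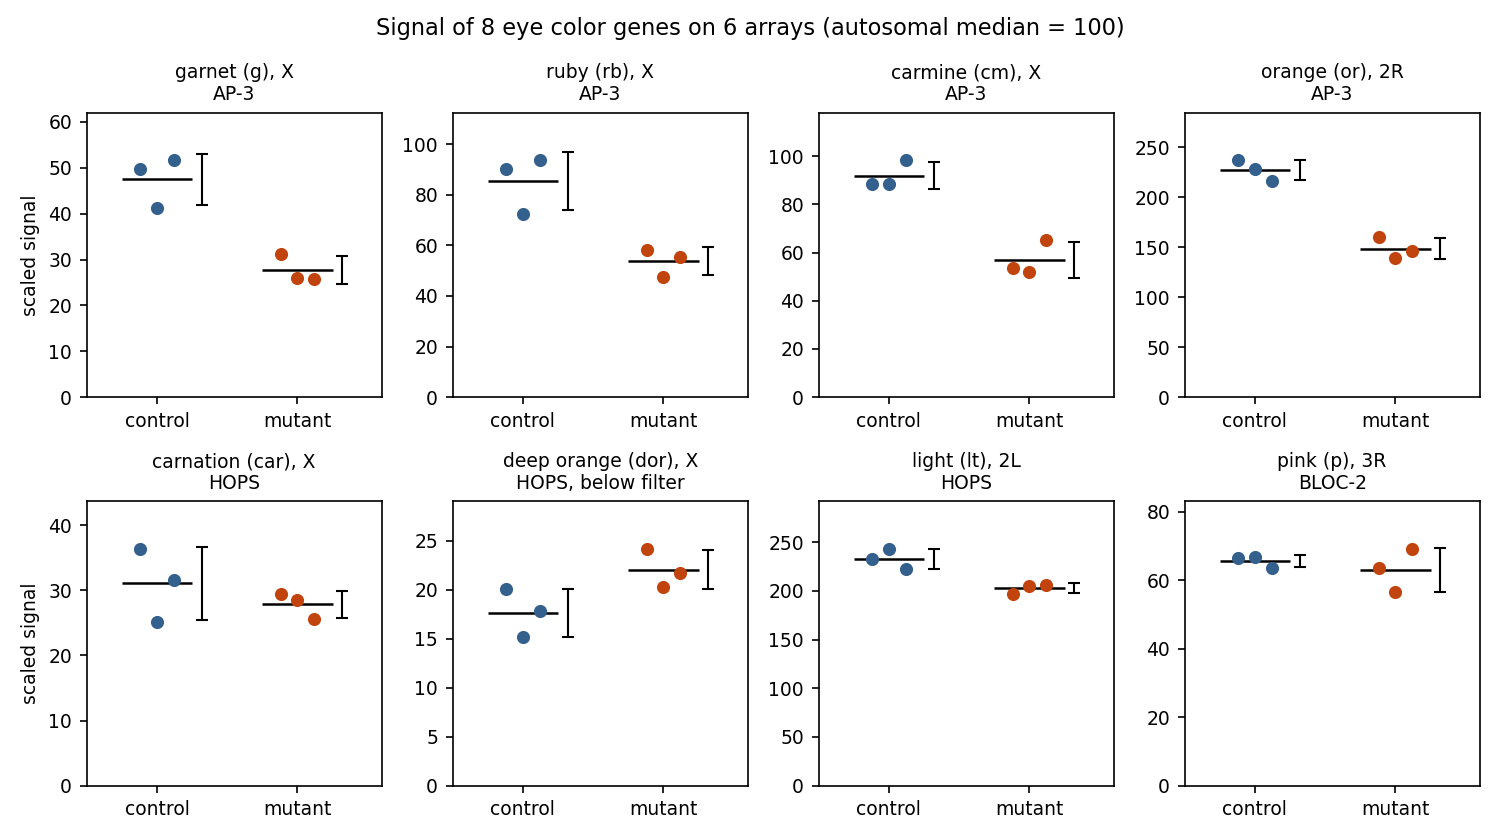
Scaled signal of the 8 eye color genes with a named probe set on each of 6 arrays (points), with the group mean (line) and SD (bar, n = 3); each panel has its own linear axis from 0. The 4 AP-3 genes of the top row have all mutant arrays below all control arrays, while car and p overlap. All mutant arrays were lower in 53.1% of X-linked and 34.3% of autosomal tested genes.

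Within the AP-3 complex the fall was of similar measured size on X and off it. The mean log2 signal of g, rb and cm minus that of or was -1.80, -1.79 and -1.69 on mutant arrays against -1.69, -1.83 and -1.47 on control arrays. The groups overlapped, and the mutant mean minus the control mean was -0.10 (SD 0.061 in the mutant and 0.179 in the control, n = 3 each). Over the 9 pairs of a mutant with a control array this difference ran from -0.33 to 0.14. That range is a spread over unpaired arrays and not an interval. Whether the X-linked subunits had a further loss is thus not settled. This balance is a score over chosen genes and carries no test.

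Set against the genes of their own side, the AP-3 genes stood in the lower part. The median X-linked gene differed by -0.29 and the median autosomal gene by -0.02. The g difference was lower than all but 16.2% of X-linked genes, cm than all but 20.1% and rb than all but 23.4%, while or was lower than all but 10.1% of autosomal genes. Measured from these medians, or was displaced by -0.59, g by -0.49, cm by -0.41 and rb by -0.37. These positions are descriptions of genes picked by name and carry no test.

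**Figure D2:**
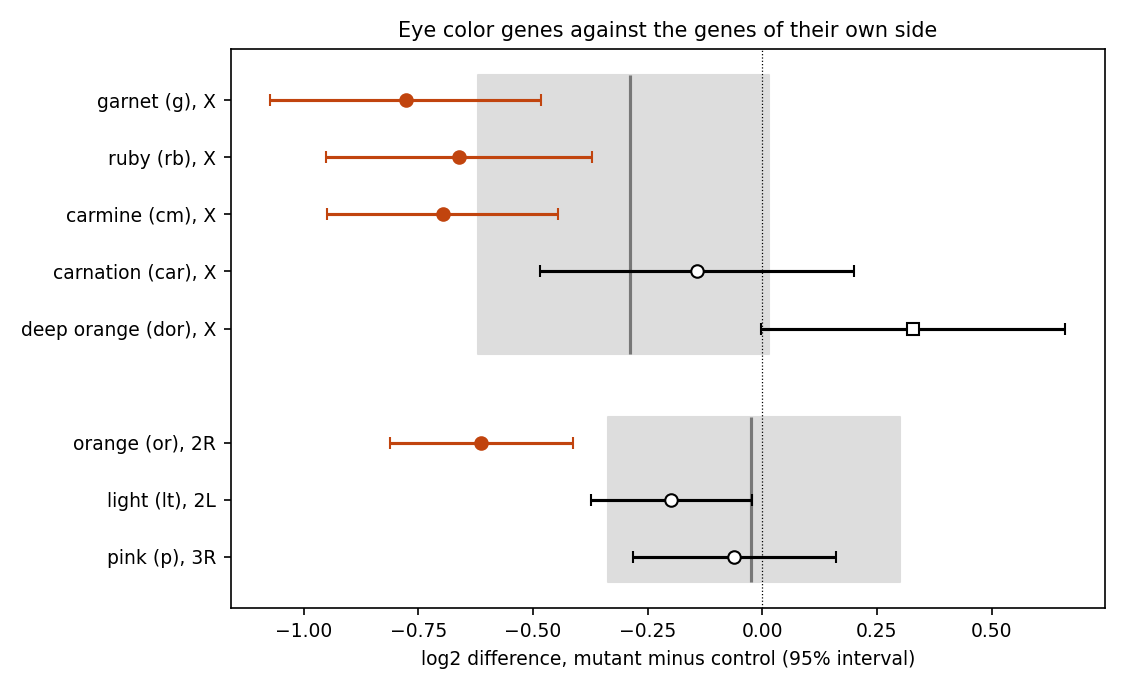
Log2 difference (mutant minus control) of the 8 genes with limma's 95% interval; filled orange points fell, open points did not pass, and the square (dor) comes from the fit without a signal filter. Grey bands span the middle 50% of X-linked (top) or autosomal (bottom) genes, with the median as a line; the AP-3 genes g, rb, cm and or lie left of their bands.

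No HOPS gene among the eye color genes passed. For car, the Vps33A subunit that binds SNARE proteins, signals were 29.5, 28.6 and 25.6 in mutants against 36.4, 25.2 and 31.6 in controls. The groups overlapped, because control array 2 was lower than every mutant array. The log2 difference was -0.14 (95% interval -0.49 to 0.20, limma adjusted p = 0.441). These signals lie near the median probe set, and the probe set is of a class that can match several transcripts, so its level may not be that of car alone.

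The probe set of dor, the Vps18 subunit, was dimmer still, with 24.2, 20.3 and 21.7 in mutants against 20.03, 15.1 and 17.8 in controls. The mutant arrays lay above the control arrays, as in 11.7% of tested X-linked genes, though mutant array 2 exceeded control array 1 only slightly. In the fit without a signal filter the difference was 0.33 (95% interval -0.00323 to 0.66, limma adjusted p = 0.10), and with the upper 70% of probe sets kept it was 0.35 (limma adjusted p = 0.0754). At this signal the direction is not settled.

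The autosomal HOPS gene lt encodes Vps41 and lies in the heterochromatin of arm 2L near the centromere. Its signals were 197, 205 and 206 in mutants against 233, 243 and 222 in controls. The groups did not overlap, as in 34.3% of autosomal genes with all mutant arrays lower. The difference was -0.20 (95% interval -0.37 to -0.02) with limma adjusted p = 0.0547, just outside the threshold, and over the 17 alternative settings the adjusted p ran from 0.0521 to 0.486. Without rescaling the lt difference shrank to -0.07. The log2 signal of car minus that of lt changed by 0.06 between the groups, with overlapping arrays. That of dor minus lt changed by 0.52 without overlap (0.20 to 0.98 over the 9 array pairs), and that of car and dor together by 0.29 with overlap, both resting on the dim dor probe set.

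The BLOC-2 gene p, on arm 3R, showed the smallest difference of the 7 tested genes. Its signals were 63.6, 56.5 and 69.2 in mutants against 66.5, 66.8 and 63.5 in controls, so the mutant arrays lay on both sides of the controls. The difference was -0.06 (95% interval -0.28 to 0.16, limma adjusted p = 0.616). It turned to 0.066 without rescaling and to 0.017 without mutant array 2, neither passing.

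Grouped by chromosome, 3 of the 4 tested X-linked genes fell and 1 of the 3 autosomal genes fell. In limma 0 rose, with 0 more at an unadjusted p under 0.05, while rises were called in 10.4% of X-linked and 25.3% of autosomal genes. The falls compare with 48.1% and 29.8%. The median difference was -0.68 for the X-linked genes and -0.20 for the autosomal ones, -0.48 apart. On the single mutant arrays this gap was -0.33, -0.61 and -0.38, against 0.06, -0.24 and 0.18 on the control arrays, taken from the control mean. Mutant array 1 thus lay close to control array 2 in this measure. With an offset of 50 the gap was -0.19. All 3 X-linked genes that fell encode subunits of the complex to which the fallen autosomal gene also belongs, so chromosome and complex cannot be told apart by so few genes.

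The genes around each eye color gene gave its local setting. Of the 20 tested genes nearest to g, 10 on each side, 12 fell and 2 rose, against falls in 48.1% and rises in 10.4% of all X-linked genes. Their median was -0.44, and 5 had lower values than g. Around cm 13 of 20 fell (median -0.42), and around rb 11 fell and 2 rose (median -0.34). The AP-3 genes on X were thus lower than the median of genes beside them, with 7 of 20 below cm and 4 of 20 below rb.

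Around or 7 of 20 neighbours fell and 6 rose (median -0.04), near the falls in 29.8% and rises in 25.3% of all autosomal genes. Of these 20 genes, 1 had a lower value than or itself. That gene was Sox14, an ecdysone-induced transcription factor gene, at -1.26, named here after its value was seen. Around car 7 of 20 genes fell and 3 rose (median -0.08), so the median there was nearer 0 than for X as a whole. Around dor 11 fell and 1 rose (median -0.44), in contrast to the positive value of dor itself. Fewer genes lie beyond lt towards the centromere, so it had 15 neighbours, of which 9 fell, against 29.8% of autosomal genes (median -0.30), and 11 of them were lower than lt. Around p 8 of 20 fell and 5 rose (median -0.26), beside the same autosomal shares of 29.8% and 25.3%.

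**Figure D3:**
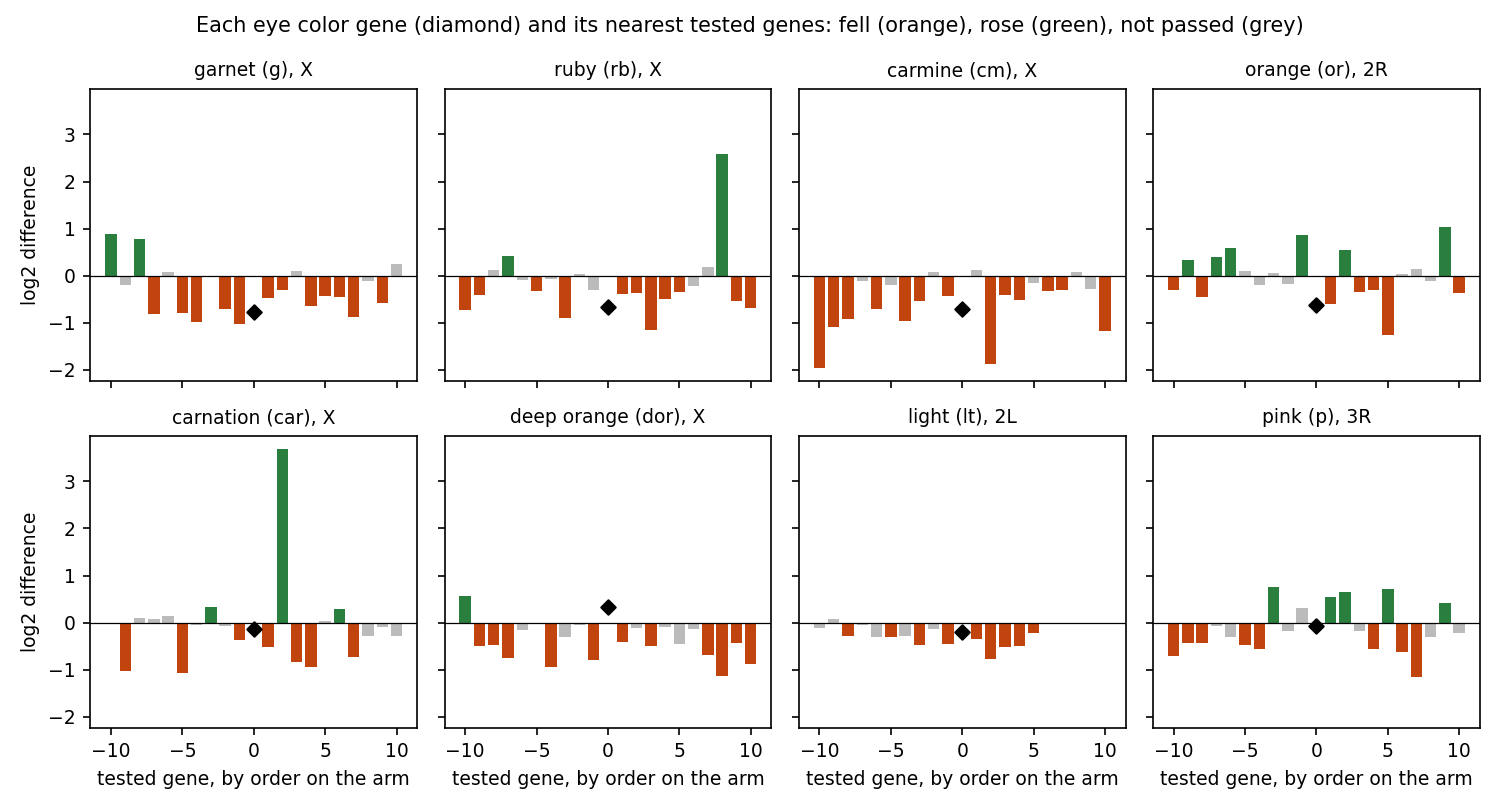
Log2 difference of each eye color gene (diamond) and of up to 10 tested genes on either side, in their order on the chromosome arm; bars are orange for genes that fell, green for genes that rose and grey for those not passing. Bars around g, rb, cm and dor are mostly orange, those around or and p are mixed, and lt has 5 genes on its right side.

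Other genes of granule formation and pigment synthesis were read from lists, whose counts can be set against falls in 32.4% and rises in 23.1% of all tested genes. The closest relatives of AP-3 are the clathrin adaptors AP-1 and AP-2, which sort cargo at the trans-Golgi and the plasma membrane. Of 7 listed AP-1 and AP-2 genes 6 were tested, 3 fell and 3 did not pass, with a median of -0.38. The 3 that fell are autosomal: AP-1sigma (-0.62, SE 0.0804, limma adjusted p = 0.000571), AP-2sigma (-0.51) and AP-2alpha (-0.49). Both X-linked genes, the AP-1 subunit AP-1gamma (-0.23, limma adjusted p = 0.148) and AP-1-2beta, which AP-1 and AP-2 share (-0.28, 0.142), did not pass.

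The sigma subunit gene AP-1sigma gave 254, 229 and 234 in mutants against 356, 389 and 356 in controls. AP-2sigma gave 321, 282 and 300 against 433, 430 and 423. Both had all mutant arrays below all control arrays, as did AP-2alpha, against 34.3% of autosomal genes.

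Of 7 listed genes of HOPS, CORVET (its early endosomal counterpart), the related Vps33B and Vps16B pair and Rab7, 5 were tested. Vps11, a HOPS subunit, fell by 0.66 (SE 0.0801, limma adjusted p = 0.000405), from 164, 167 and 164 in the control to 103, 98.2 and 111 in the mutant. Vps16A, which pairs with the product of car, fell by 0.25 (limma adjusted p = 0.0436), a call lost under 11 of 17 alternatives. The other 3 (Vps39, Vps8 and Vps33B) stood between -0.08 and -0.03 without passing, and the list's median was -0.08.

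A list of BLOC-1 and BLOC-3 subunits, Rab32, its proposed exchange factor ca and the LYST-like gene mv held 13 genes, of which 8 were tested. All 3 tested BLOC-1 genes fell. Blos2 gave 55.2, 61.4 and 62.3 in mutants against 117, 107 and 95.9 in controls, a difference of -0.83 (SE 0.0999, limma adjusted p = 0.000397). Dysb, the dysbindin gene, fell by 0.74 and Blos1 by 0.44, Blos1 being named after its value was seen. The mutant signals of Dysb (29.2, 32.8 and 33.5) lay near the median probe set, and an offset of 50 gave -0.33 for Dysb and -0.51 for Blos2. BLOC-1 acts with AP-3 in vesicle sorting, and 4 of its 8 listed genes had no named probe set. The BLOC-3 genes HPS1 (-0.21) and HPS4 (-0.09) and Rab32, mutated in lightoid flies (-0.18), did not pass.

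The claret gene ca and the mauve gene mv went the other way. The signal of ca was 41.3, 46.5 and 48.3 in mutants against 28.6, 21.6 and 29.7 in controls, a rise of 0.78 (SE 0.142, limma adjusted p = 0.00254). That of mv was 44.5, 49.9 and 41.1 against 35.5, 29.6 and 26.7, a rise of 0.57 (SE 0.133, limma adjusted p = 0.00769). Control arrays lay near or under the median probe set (28.9) in both genes, so the sizes are uncertain, and with an offset of 50 they were 0.32 and 0.24.

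Of 13 genes of pteridine synthesis, the route to the red drosopterins, and of its cofactor and purine supply, 10 were tested, 7 fell, 3 did not pass and none rose (limma, 0 at an unadjusted p under 0.05 too). Falls were seen in 3 of 4 X-linked and 4 of 6 autosomal genes, with a median of -0.61. The autosomal purple gene pr, a pyruvoyl tetrahydropterin synthase, gave 244, 307 and 292 in mutants against 483, 488 and 448 in controls (-0.76, SE 0.1, limma adjusted p = 0.000604). Dhpr, dihydropteridine reductase, fell by 1.11, from 865, 823 and 910 to 534, 353 and 345. On X, the prune gene pn fell by 0.88 and ras, the IMP dehydrogenase of guanine nucleotide synthesis, by 0.95. The mutant signals of pn (32.4, 24.7 and 28.8) lay near the median probe set, and its difference was -0.38 with an offset of 50.

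Pigment precursors enter granules through paired ABC transporters, in which w pairs with bw for the red and with st for the brown pigment. Of st, bw and mah only bw was tested. Its signal was 32.3, 26.9 and 16.0 in mutants against 77.7, 46.2 and 55.3 in controls, so that it fell by 1.28 (SE 0.277, limma adjusted p = 0.00551). The size is uncertain at this signal, and an offset of 50 gave -0.54. Of the brown ommochrome enzymes cn, cd and KFase only KFase, kynurenine formamidase, was tested, at 0.44 without passing (limma adjusted p = 0.101).

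**Figure D4:**
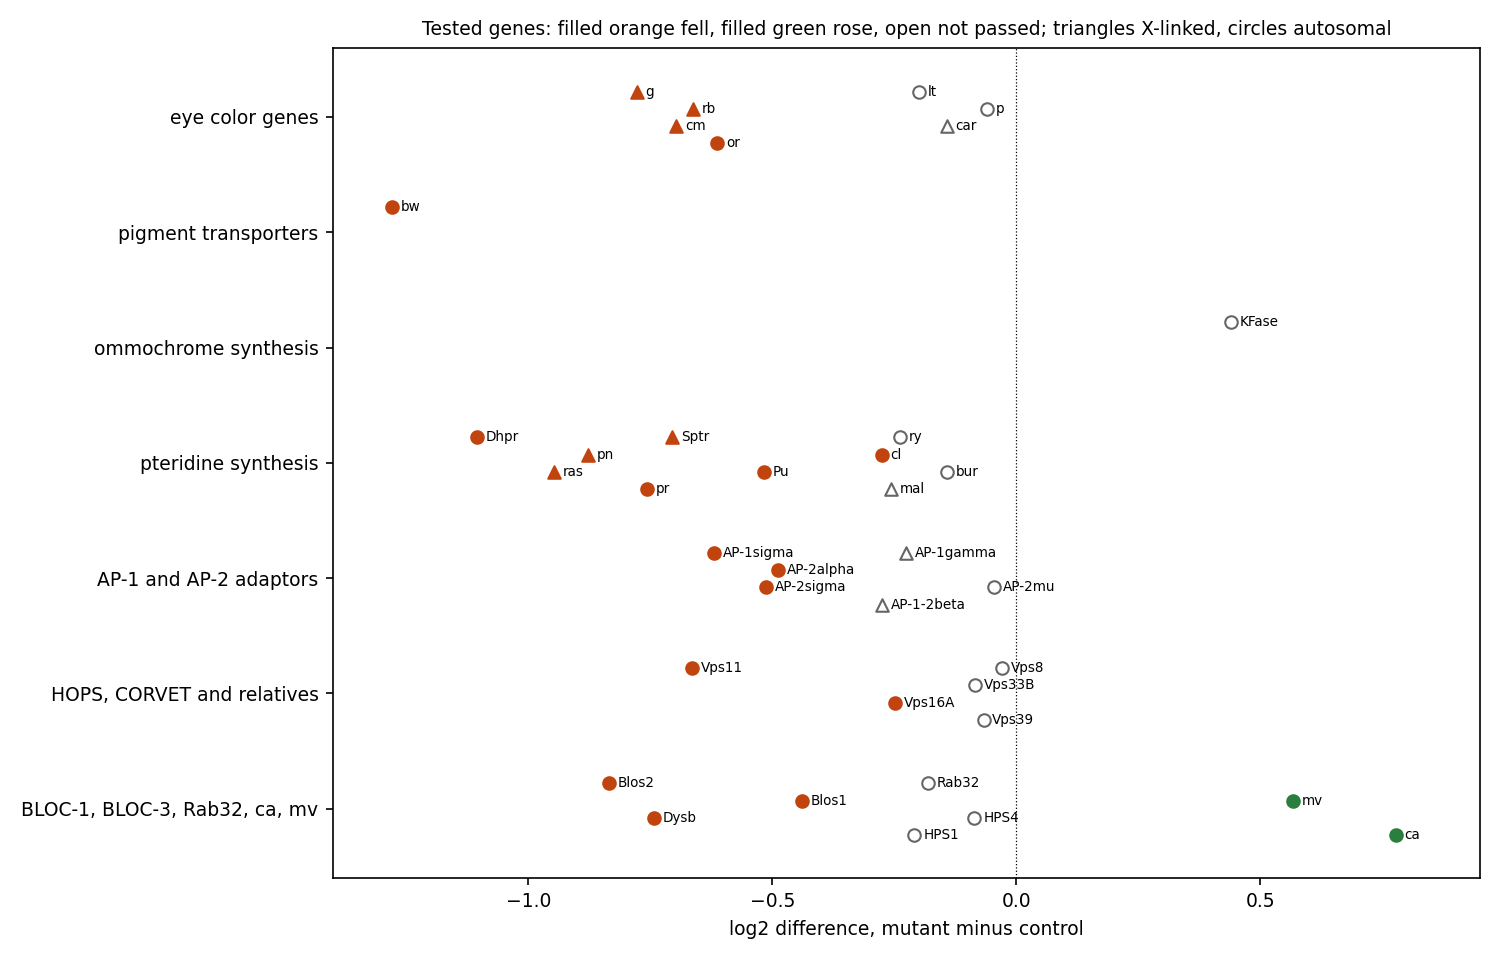
Log2 difference (mutant minus control) of every tested gene in the eye color set and in 6 lists of related genes; filled orange symbols fell, filled green symbols rose, open symbols did not pass, and triangles are X-linked. Falls of 0.4 or more occur on X and on autosomes, and ca and mv are the 2 genes that rose.

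Arrays of 1 group correlated across genes at 0.972 or higher, and at most at 0.926 between groups. Tissue markers also differed, in counts to be read against falls in 32.4% and rises in 23.1% of all tested genes. Of 8 Malpighian tubule markers 5 were tested and 3 rose, among them Alp4 (2.05) and ZnT35C (0.72), and the summed signal of the list was 657 to 780 in the mutant and 308 to 343 in the control. Most of that gap was Alp4, and without it the other 5 summed to 267 to 361 and 223 to 230. Lkr, a tubule marker under the signal filter, fell by 0.54 in the fit without it (limma adjusted p = 0.00776). Of 8 eye disc markers 3 were tested and 2 fell, toy (-1.13) and dac (-0.51, lost in 5 of 17 alternatives). The mutant signals of toy (28.1, 23.9 and 23.9) lay under the median probe set, and an offset of 50 gave -0.48. The eye disc list had sums of 175 to 212 and 241 to 264, and without toy the sums of the groups overlapped. In the fit without the signal filter, gl (-0.80, limma adjusted p = 0.0197) and ato (-0.46, limma adjusted p = 0.0452) fell. There sens (0.26), ey (-0.11) and eya (-0.34) did not pass. These eye disc genes under the filter were named after their values were seen. Fat body markers split, with 2 rises (FASN1 at 2.35) and 2 falls (Fbp1 at -0.26, lost without rescaling and with quantile scaling) among 7 and sums of 9272 to 10914 against 9833 to 10022. Of 7 hemocyte markers 3 fell, eater (-0.67), crq (-0.44) and NimC1 (-0.35), and 1 rose, Hml (0.75). Pxn (0.46), PPO1 (0.63) and PPO2 (1.06) did not pass, and the list's median was 0.46. The hemocyte sums were 952 to 1368 in the mutant and 923 to 1274 in the control. Of 6 tested testis markers 3 rose, S-Lap8 (1.01), S-Lap2 (0.78) and Mst84Da (0.25), and 1 fell, sa (-0.50). Mst84Db (0.09) and Mst87F (-0.01) did not pass. Under the signal filter, can (-0.48, limma adjusted p = 0.00732) fell in the fit without it and dj (0.14) did not pass. The testis sums were 3490 to 4100 in the mutant and 2781 to 3176 in the control. No deposited marker value was at or below 0. The part of these tissue differences in the falls of AP-3, BLOC-1, pteridine and bw genes and in the rises of ca and mv was not tested.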

How the data were processed

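The authors deposited intensity values per probe set, linear, with a column for each array. GCOS 1.2 is named in the submitters' processing notes. Per the labels' design text, genes were filtered by perfect match minus mismatch and autosomal medians brought to 100 on each array. The probe summary method was not given in the sources used here. Deposited medians over all probe sets were 105 to 107 on mutant and 100.3 to 100.8 on control arrays, near that value, but over autosomal probe sets they were 180 to 184 and 164 to 167. Arrays were therefore rescaled, which changed the share of rises among calls from 58.5% to 41.7%. Each array had 113 to 169 values at or below 0, which were replaced by its lowest positive value.

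Probe sets were named through the platform annotation and gene IDs of RefSeq (Release 6 plus ISO1 MT), used for names, chromosomes and order only. Of 13647 probe sets with 1 gene, 13544 matched by gene ID. The upper 50% of probe sets by mean log2 signal were kept, the brightest per gene (7801 genes), and each array was scaled to an autosomal median of 100 (factors 0.246 to 0.280). limma 3.58.1 (trend) in R 4.3.3 was fitted over all 6 arrays, with Benjamini-Hochberg adjustment over all genes. The fit was run on simulated arrays in which a small set of genes, balanced up and down, was changed after scaling. Far more genes were called in the real data, so that run does not check the scaling or the false calls here. The number of arrays limits precision. No sequences are shown and the planned promoter motif search was not run, as no sequence table was used here.

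The members and lists were chosen with earlier results of these data known. Genes named by rule were every eye color gene with a probe set and up to 4 called genes of smallest p per pathway list. From each marker list up to 2 such genes were named. Others were marked as named after their values were seen. Given to complete a pathway count were Vps39, Vps8, Vps33B, HPS1, HPS4, Rab32, AP-1gamma, AP-1-2beta and KFase. Given to complete a marker list were NimC1, Hml, Pxn, PPO1, PPO2, Mst84Da, Mst84Db, Mst87F, sa, can and dj. Alternatives covered the filter, scaling, offset, probe set choice, variance model, replicate block and leaving out each array.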

Additional observations from a re-analysis of the deposited data

How the results depend on the processing

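The 4 AP-3 genes fell, and car, lt and p did not pass, under all 17 alternatives run. Leaving out 1 array gave -0.88 to -0.71 for g, -0.78 to -0.58 for rb, -0.80 to -0.63 for cm and -0.67 to -0.57 for or. The p difference ran from -0.13 to 0.017 on leaving out 1 array and was 0.066 without rescaling, which moved the median of all genes from -0.06 to 0.07. With an offset of 50 the X-linked minus autosomal median was -0.19. The HOPS and CORVET falls numbered 1 with no signal filter, the wider filter (upper 70%), all-gene or quantile scaling, no rescaling and the replicate block, and 1 to 2 on leaving out 1 array. Rises in ommochrome genes numbered 1 without rescaling and 0 to 1 on leaving out 1 array (KFase passed without mutant array 1). With no signal filter 1 transporter gene rose. Autosomal falls numbered 1303 without rescaling, against 1991. Leaving out the rescaling shifts every gene's difference by the same amount, as for g (-0.78 to -0.65) and p (-0.06 to 0.066). The transporter gene that rose was st, which the main filter leaves out. The HOPS and CORVET call that was lost was Vps16A, a gene of the main fit. Its limma adjusted p was 0.0588 with no signal filter and 0.0677 with the wider one. The cause of the other moves was not tested.

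Arrays share replicate numbers, but deviations from the group means correlated at -0.34, -0.06 and -0.38 between arrays of 1 number. Between arrays of unlike number the correlations ran from -0.36 to 0.51. Deviations of 3 arrays cancel within their group, so these correlations constrain each other and cannot settle whether arrays are paired. With the replicate block calls numbered 2166 falls and 1529 rises in place of 2525 and 1805, the AP-3 genes still passed (g at limma adjusted p = 0.00496), and of the pathway genes named by rule Vps16A lost its call (limma adjusted p = 0.106). Dim probe sets limit g, car, dor, bw, pn, ca, mv, Dysb, toy, AP-1gamma and Vps39, among other named genes near the median probe set.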

Other observations

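Several granule and pigment genes lay under the signal filter and were read only in the fit without it, on 11953 genes. They were named after their values were seen. The scarlet gene st, the partner of w for the brown pigment precursor, gave 13.0, 17.8 and 21.7 in mutants against 2.30, 5.08 and 2.83 in controls, all under the median probe set (28.9). Its fitted rise was 2.42 (95% interval 1.67 to 3.17, limma adjusted p = 0.000767), opposite to the fall of bw, and at such signals neither its size nor the presence of st RNA in the control is settled. The pallidin gene Pldn, a further BLOC-1 subunit, gave 20.1, 21.0 and 21.0 against 36.4, 39.7 and 32.4, a fall of 0.80 (limma adjusted p = 0.000938), in the same direction as the BLOC-1 genes Blos1, Blos2 and Dysb. The dim genes cn (-0.48), cd (-0.29), se (-0.57), mah (0.03) and Vps16B (0.26) did not pass.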
